A study of Arabidopsis thaliana with 8 samples.

Results

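The 8 genes described here encode jacalin-related lectins of Arabidopsis, and all 8 listed genes had a probe set that the array annotation assigns to that gene alone, as had 13333 genes in all on an array of 22810 probe sets. They are JAL33 (AT3G16450), JAL34 (AT3G16460), AT1G33790, AT1G52050, AT1G52060, AT1G52070, AT1G52100 and AT5G35940. All 8 probe sets carry the identifier suffix of probe sets designed for a single transcript, and all 8 passed the filter on dim probe sets. RNA of untreated 7-day-old whole seedlings was hybridised to 8 Affymetrix arrays in 4 groups of 2. The groups were a gibberellin-deficient mutant, described as leaky and carried in Ler, a de-etiolated mutant carried in Col, the wild type Ws (Wassilewskija) and the wild type Ler (Ler-0). The labels named neither mutated gene nor its allele. A Col wild type is not analysed here, so the mutation of the de-etiolated line and its accession cannot be told apart. The 8 genes were selected on the signals of these 4 groups. Their differences are therefore given as a description, and the calls of these genes support nothing beyond it.

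Jacalin-related lectins share the jacalin fold, a sugar-binding domain first known from jackfruit seeds, and bind mannose, galactose or glycans that carry them. In Arabidopsis the family is large, lies partly in tandem arrays of neighbouring genes, and has members that associate with PYK10, a beta-glucosidase stored in the ER bodies of seedlings and roots. When cells are damaged, cytosolic lectins such as JAL33 and JAL34 are known to meet PYK10 and to join large complexes with it. Other proteins with this domain bind myrosinases or steer the breakdown of glucosinolates, which are defence compounds of this plant family.

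The authors' signals were on a common scale, with a 2%-trimmed mean of 100.01 in every array. Arrays of 1 group correlated at 0.973 to 0.978 in log2 signal over the 13648 probe sets tested, and arrays of different groups at 0.908 to 0.966. The signal level at which dim probe sets were left out was about 24.2. For the older actin control, the 3′ over 5′ signal ratio stood at 3.84 and 4.93 in the gibberellin-deficient mutant, 2.35 and 2.32 in de-etiolated mutant seedlings, 2.26 and 1.90 in Ws, and 5.22 and 4.77 in Ler. It was thus higher in the 4 arrays in the Ler background than in the 4 others, while that of the newer actin control was 1.16 to 1.5 throughout. The ratio of the newer ubiquitin control did not run high in the Ler background. It was 0.989 and 0.929 in the gibberellin-deficient mutant and 0.943 and 0.79 in Ler. In the de-etiolated mutant it was 0.986 and 1.648, and in Ws 1.828 and 1.436. The 25S rRNA control read 69.7 and 39.6 in the gibberellin-deficient mutant and 108 and 62.4 in the de-etiolated mutant, against 22.2 to 32.0 in the wild types. Below, a difference is that of group means of log2(signal + 2.96) with the standard error (SE) of limma, and a gene is called where the adjusted p over all 13648 probe sets tested is below 0.05.

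The lectins fell into sets by how their signal ran over the 4 groups. JAL33 and AT5G35940 were higher in all 4 arrays in the Ler background than in all 4 arrays of Ws and the de-etiolated mutant, and AT1G52100 was lower in all 4. Over all probe sets tested, 7.37% were above and 7.56% below in this way. The other 5 genes, AT1G33790, AT1G52050, AT1G52060, AT1G52070 and JAL34, did not separate the arrays by background. In 6 of the 8 genes, JAL33, JAL34, AT1G33790, AT1G52060, AT1G52070 and AT5G35940, both arrays of the gibberellin-deficient mutant exceeded the 6 others, as did 13.3% of all probe sets tested.

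**Figure D1:**
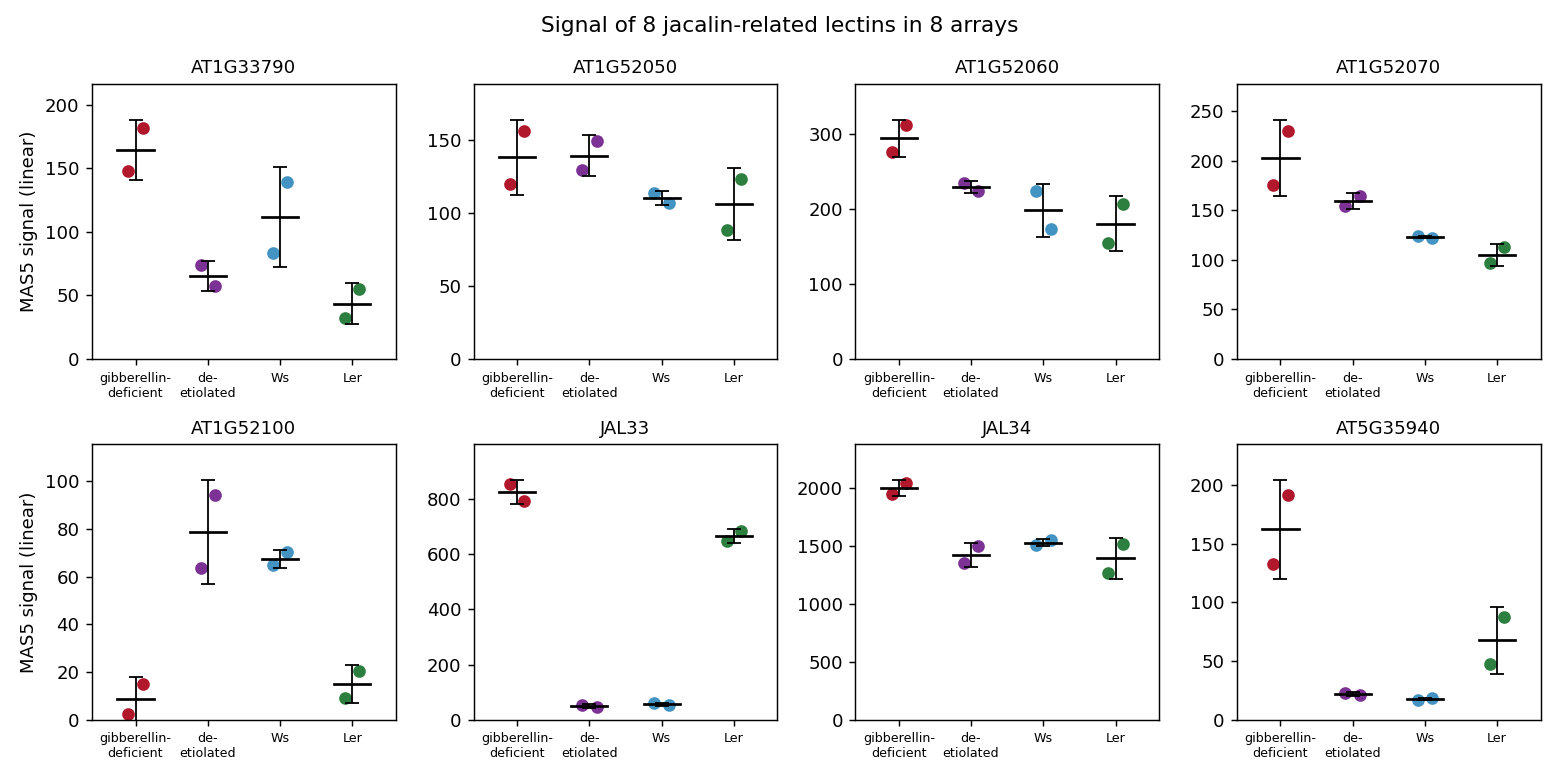
Signal (linear MAS5 scale, each panel from 0) of the 8 lectins in the gibberellin-deficient mutant, the de-etiolated mutant, Ws and Ler; points are single arrays and bars the mean ± SD of 2. JAL33 averages 823 and 665 in the mutant and the wild type of the Ler background, and 50.3 and 56.5 in the de-etiolated mutant and Ws, while AT1G52100 runs the other way.

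JAL33, a lectin found in PYK10 complexes, showed the widest separation. Its signal was 854 and 793 in the gibberellin-deficient mutant, 55.0 and 45.6 in de-etiolated mutant seedlings, 60.4 and 52.6 in Ws, and 648 and 683 in Ler. Both lines in the Ler background were high and the other 2 groups low, with no array in between. In the de-etiolated mutant the difference from Ler was -3.65 (SE 0.15), or 12.6-fold lower, and in Ws it was -3.49 (SE 0.15), or 11.3-fold lower. JAL33 held place 10 among the largest falls of all 13648 probe sets in Ws against Ler, and place 15 in the de-etiolated mutant against Ler. Both comparisons use the same Ler arrays. Both were called under every alternative setting that keeps all arrays. Over all 15 alternatives the differences were -3.78 to -3.39 for the de-etiolated mutant and -3.59 to -3.26 for Ws. Leaving out an array of a group not compared cannot move them. Between the de-etiolated mutant and Ws JAL33 differed by -0.16 (SE 0.15) and was not called. Against Ler, the gibberellin-deficient mutant had a difference of 0.31 (SE 0.15), also not called. Both arrays of this mutant lay above both Ler arrays, as they did for 29.7% of all probe sets tested. The older actin ratio, which also ran high in the Ler background, and JAL33 moved together over these groups. The newer actin ratio was 1.16 to 1.5 in all arrays. The newer ubiquitin ratio was 0.79 to 0.989 in the Ler background and 0.986 to 1.828 in the other groups. The part of RNA quality was not tested for JAL33, nor for AT5G35940 and AT1G52100. In whole seedlings, fewer cells of a type and less RNA per cell cannot be told apart. Probe sequences were not at hand, so the part of sequence differences between accessions in the signals of these lectins was not tested.

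AT5G35940, a jacalin-related lectin without a symbol in the gene table, ran in the same direction but separated the 2 lines in the Ler background as well. Its signal was 133 and 192 in the gibberellin-deficient mutant, 22.9 and 20.9 in de-etiolated mutant seedlings, 17.0 and 18.3 in Ws, and 47.6 and 87.7 in Ler. The mutant in the Ler background was highest, Ler next and the other 2 groups lowest, and the arrays of these 3 levels did not overlap. Both steps between these levels were called. AT5G35940 was lower in Ws than in Ler by -1.72 (SE 0.28) and in the de-etiolated mutant than in Ler by -1.45 (SE 0.28), and it rose by 1.26 (SE 0.28) in the gibberellin-deficient mutant against Ler. The de-etiolated mutant differed from Ws by 0.27 (SE 0.28) and was not called. All 4 arrays of Ws and the de-etiolated mutant lay below the signal of 24.2 that set the filter, which limits the precision of the differences that use them. AT5G35940 thus passed the filter, which used the mean over all arrays, only through the Ler background, where it was high. Its calls against Ler are a description. The Ler arrays were far apart, and the call of the de-etiolated mutant against Ler was lost without Ler replicate 2 (-1.02, adjusted p = 0.058 by limma).

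AT1G52100, the last listed gene of a tandem run on chromosome 1, had the opposite pattern. Its signal was 2.26 and 15.2 in the gibberellin-deficient mutant, 63.5 and 94.1 in de-etiolated mutant seedlings, 65.0 and 70.3 in Ws, and 9.3 and 20.6 in Ler. All 4 arrays in the Ler background were below the filter level of 24.2 and below every other array. AT1G52100 thus passed the filter, which used the mean over all arrays, only through Ws and the de-etiolated mutant, where it was high. Its calls against Ler are a description. AT1G52100 was higher by 2.24 (SE 0.49) in the de-etiolated mutant than in Ler and by 2.05 (SE 0.49) in Ws than in Ler, and it was called in both. With the larger pseudocount of 50% of the median signal the difference of the de-etiolated mutant was 1.66. The Ws call was lost without Ws replicate 1 (adjusted p = 0.122 by limma), Ws replicate 2 (adjusted p = 0.125) or Ler replicate 1 (1.58, adjusted p = 0.19). It was lost also without the filter (adjusted p = 0.090) and without the variance trend (adjusted p = 0.063). The de-etiolated call was lost without replicate 2 of that mutant (1.97, adjusted p = 0.067) or Ler replicate 1 (1.77, adjusted p = 0.069). The gibberellin-deficient mutant differed from Ler by -0.80 (SE 0.49), which was not called, and by 0.096 without its replicate 1 and -1.70 without its replicate 2 (adjusted p = 0.042). The size and direction of that difference thus rested on single arrays.

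The gibberellin-deficient mutant against Ler sets the hormone-deficient seedlings beside the wild type of the same background. Of the 8 lectins 5 rose and none fell, AT1G33790 by 1.89, AT5G35940 by 1.26, AT1G52070 by 0.92, AT1G52060 by 0.71 and JAL34 by 0.53. Over all probe sets tested, 4.55% were called higher, 6.18% lower and 10.7% in either direction. The median difference of the 8 was 0.62, against 0.0086 over all probe sets. Since this contrast was in view when the genes were listed, nothing is read from these counts.

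AT1G33790 changed most in this comparison, at place 22 among the largest rises of all probe sets. Its signal was 148 and 182 in the gibberellin-deficient mutant, 73.7 and 57.3 in de-etiolated mutant seedlings, 83.8 and 139.6 in Ws, and 32.2 and 55.0 in Ler. The mutant and Ler arrays were well apart, with the de-etiolated mutant and Ws between them. Its rise of 1.89 (SE 0.28), or 3.70-fold, was called under every setting that keeps all arrays. Over all 15 alternatives its values were 1.53 to 2.25, where leaving out an array of Ws or the de-etiolated mutant cannot move the difference. It was higher in Ws than in Ler too, by 1.30 (SE 0.28), a call lost without Ws replicate 2 (0.94, adjusted p = 0.13 by limma), without Ler replicate 1 (0.94, adjusted p = 0.13) or without the filter (adjusted p = 0.052). In the order gibberellin-deficient mutant, Ws, de-etiolated mutant and Ler, no step between neighbours was called.

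AT1G52050, AT1G52060 and AT1G52070 follow each other directly in the gene order, and their groups differed less than those of the lectins above. AT1G52060 and AT1G52070 had their means in the same order of groups, while AT1G52050 was highest in the de-etiolated mutant (mean 139.7, against 138.5 in the gibberellin-deficient mutant). AT1G52070 gave 176 and 230 in the gibberellin-deficient mutant, 154 and 165 in de-etiolated mutant seedlings, 124 and 122 in Ws, and 97.0 and 113 in Ler. The groups stood in this order with no overlap, but no step between neighbours was called. AT1G52060 gave 277 and 312 in the gibberellin-deficient mutant, 234 and 223.5 in de-etiolated mutant seedlings, 223.5 and 174 in Ws, and 154 and 206 in Ler. The arrays of Ws and Ler overlapped, and no step between neighbouring groups was called. Its rise against Ler in the gibberellin-deficient mutant lost its call without the trend (adjusted p = 0.057 by limma). AT1G52050 gave 120.2 and 157 in the gibberellin-deficient mutant, 130 and 150 in de-etiolated mutant seedlings, 114 and 107 in Ws, and 88.9 and 124 in Ler. Its mutant and Ler arrays overlapped, its difference between them was 0.38 (SE 0.19), and it was called in none of the 4 comparisons.

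JAL34, the neighbour of JAL33, is a further lectin found with PYK10. Its signal was 1954 and 2049 in the gibberellin-deficient mutant, 1351 and 1497 in de-etiolated mutant seedlings, 1508 and 1550 in Ws, and 1270 and 1518 in Ler. The gibberellin-deficient mutant stood above the rest, and the other 3 groups lay close together. The step of 0.39 down to Ws, the next group in order, was the 1 step called. Its rise of 0.53 (SE 0.12) against Ler, or 1.44-fold, was the smallest of the 5 called. The call was lost on leaving out either array of the mutant or Ler replicate 1 (0.40 to 0.56, adjusted p of 0.099 to 0.15 by limma), without the filter (adjusted p = 0.0545) and without the trend (adjusted p = 0.074). The difference was 0.14 (SE 0.12) in Ws against Ler and 0.03 (SE 0.12) in the de-etiolated mutant against Ler, where JAL33 differed more than 10-fold.

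Several of these rises depended on which arrays were in the fit. All 8 lectins were higher in replicate 2 than in replicate 1 of Ler, by a median of 0.44, and 7 of 8 were higher in replicate 2 of the gibberellin-deficient mutant, by a median of 0.33. Over all probe sets tested, 53.3% and 50.9% were higher in these arrays, with medians of 0.023 and 0.0056. Without Ler replicate 1, AT1G33790 was the 1 lectin still called in this mutant against Ler. Without replicate 1 of the mutant 3 were called (AT1G33790, AT1G52070 and AT5G35940), and without its replicate 2 there were 2, the rise of AT1G33790 and a fall of AT1G52100. Leaving out an array leaves 1 in its group, which is then assumed to vary like the other groups, and power is lower.

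**Figure D2:**
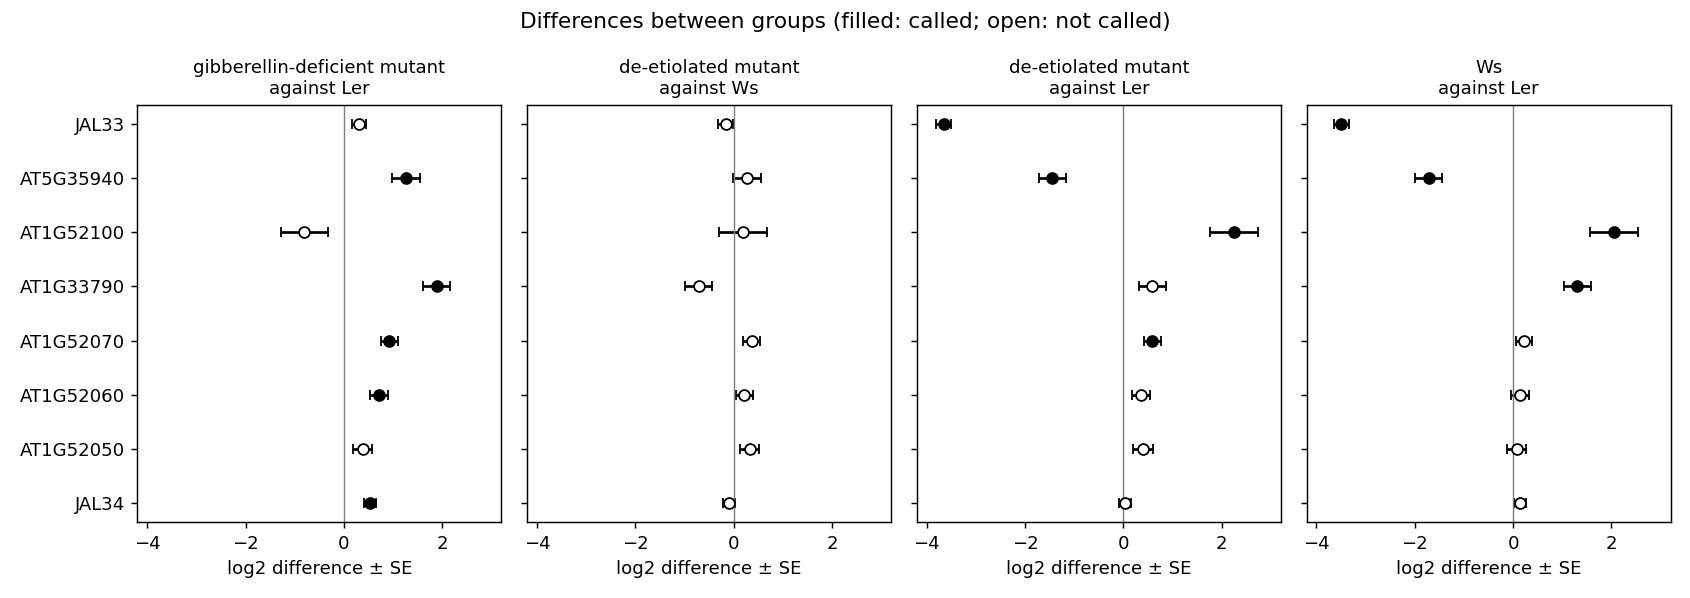
Log2 difference ± SE (limma) of the 8 lectins in 4 comparisons, filled where called over all probe sets tested. Differences lie within 0.71 of 0 in the de-etiolated mutant against Ws, while JAL33 reaches -3.65 and -3.49 in the 2 comparisons with Ler.

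The comparisons of the de-etiolated mutant with each wild type, and of Ws with Ler, place the Col line beside both accessions. Against Ws none of the 8 lectins was called by limma, and 2 had an unadjusted p below 0.05, AT1G33790 (-0.71, SE 0.28) and AT1G52070 (0.37, SE 0.17), as had 16.9% of all probe sets. Over all probe sets 2.24% were called in that comparison, 1.35% higher and 0.894% lower. Against Ler, 4 lectins were called in the de-etiolated mutant, JAL33 and AT5G35940 lower and AT1G52100 and AT1G52070 (0.59, SE 0.17) higher, where 15.9% of all probe sets were called, 7.83% higher and 8.03% lower. The call of AT1G52070 was lost without either de-etiolated array or either Ler array, with differences of 0.48 to 0.70 and adjusted p of 0.065 to 0.16 by limma. It was lost too without the filter (adjusted p = 0.0504), without the trend (adjusted p = 0.058) and with only the 2 groups in the fit (adjusted p = 0.051). The counts fell to 2 lectins without replicate 2 of the mutant, Ler replicate 1 or Ler replicate 2. In Ws against Ler 4 were called as well, JAL33 and AT5G35940 lower and AT1G52100 and AT1G33790 higher, where 5.82% of all probe sets were called, 2.71% higher and 3.11% lower. That count was 2 without Ws replicate 2 or Ler replicate 1, and JAL33 and AT5G35940 were those 2. The same Ler arrays enter 3 of the 4 comparisons.

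Over the 8 arrays, Pearson correlations of log2 signal between the lectins ran from -0.92 to 0.92 in 28 pairs, with a median of 0.44. The arrays are 4 pairs of replicates, so these values mostly describe the 4 group means. AT1G52060 and AT1G52070 had r = 0.92, and AT1G52050 had r = 0.80 with AT1G52060 and 0.84 with AT1G52070. AT1G52100, in the same run, had r = 0.22 with AT1G52050, -0.22 with AT1G52060 and -0.11 with AT1G52070. JAL33 and AT5G35940 lie on different chromosomes and had r = 0.92, while JAL33 had r = -0.92 with AT1G52100 and 0.44 with its neighbour JAL34. JAL34 was closest to AT1G33790 (r = 0.85).

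**Figure D3:**
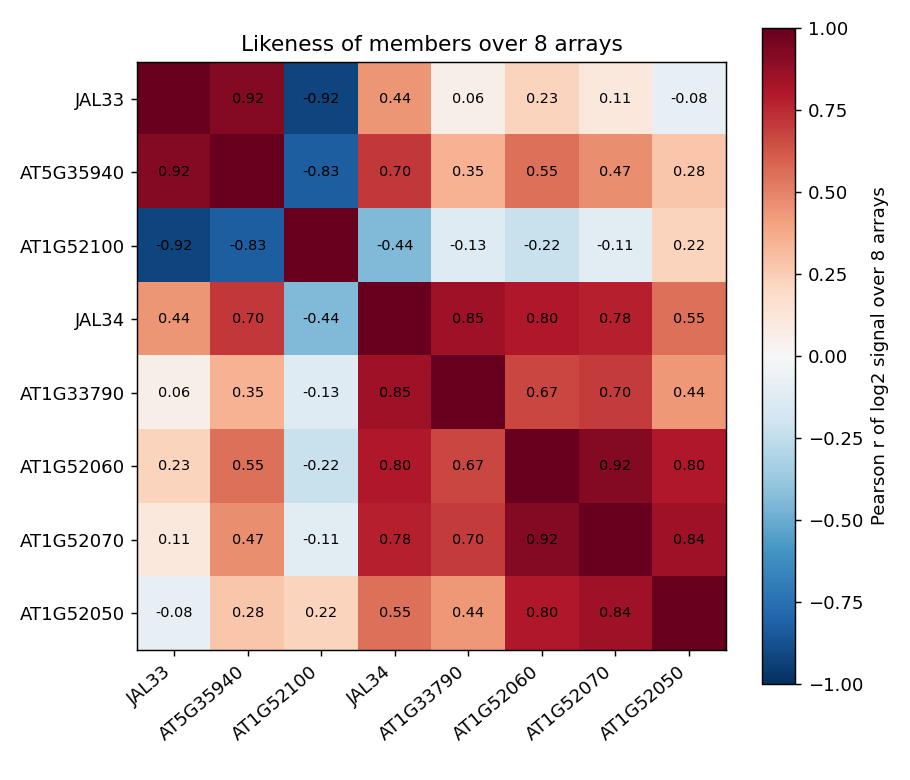
Pearson r of log2 signal over 8 arrays for each pair of the 8 lectins (colour from -1 to 1, values printed). JAL33 and AT5G35940 form a pair with r = 0.92 that runs against AT1G52100 (r = -0.92 and -0.83), and the 5 other lectins correlate with each other at 0.44 to 0.92.

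Among the other tested probe sets that name 1 gene, the likest to each lectin over the 8 arrays were sought. AT2G25520 was likest to JAL33 (r = 0.995), with 864 and 864 in the gibberellin-deficient mutant, 486 and 431 in de-etiolated mutant seedlings, 476 and 455 in Ws, and 768 and 851 in Ler. It shares the order of the groups with JAL33 at a much smaller ratio between them. AT5G48020 (r = 0.992) and AT5G01350 (r = 0.991) followed. AT3G01740 was likest to AT1G52100 (r = 0.983), AT2G26200 and AT5G07030 to AT5G35940 (r = 0.982 each), and AT1G50380 to AT1G33790 (r = 0.977). MYC3, a transcription factor of jasmonate responses, was likest to JAL34 (r = 0.977), DJ1D to AT1G52060 (r = 0.973), the protein kinase gene ATMPK8 to AT1G52070 (r = 0.972) and AT1G70480 to AT1G52050 (r = 0.969). How many other genes reach such values was not counted.

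In the gene table of assembly TAIR10.1, AT1G52050, AT1G52060 and AT1G52070 have no protein-coding gene between them, AT1G52070 and AT1G52100 have 1, and JAL33 and JAL34 have none. Of the 24 nearest measured neighbours, 3 on each side of the 4 places where the lectins lie, 1 was called in the gibberellin-deficient mutant against Ler, 1 in the de-etiolated mutant against Ws, 6 in the de-etiolated mutant against Ler and 2 in Ws against Ler. Over all probe sets the shares called were those given above, 10.7%, 2.24%, 15.9% and 5.82%. A gene counts as measured here where a probe set that names it alone passed the filter. These neighbours lay up to 20 genes from the first lectin of their place, often with genes not measured in this sense between. Around JAL33 in Ws against Ler, the nearest measured gene on one side, AT3G16370, was higher by 0.83. Genes without a tested probe set of their own lie between it and JAL33. On the other side, JAL34 and IQD26 had differences of 0.14 and 0.03. None of the 6 measured neighbours there was called lower in Ws, with differences of -0.44 to 0.83. In the de-etiolated mutant against Ler 3 of these 6 were called, AT3G16370 (0.90) and UGT88A1 (1.154) higher and AT3G16530 lower (-1.91). AT3G16530 was also the 1 neighbour called in the gibberellin-deficient mutant against Ler (-2.66) and in the de-etiolated mutant against Ws (-2.33). Around the run on chromosome 1, none of 6 neighbours was called in the gibberellin-deficient mutant against Ler, with differences of -0.15 to 0.67. AT1G52000, itself a jacalin-related lectin, is among these 6 and had a difference of 0.63 in that comparison. The 6 neighbours of AT1G33790 had differences of -0.63 to 0.33 there, against 1.89 for AT1G33790 itself.

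**Figure D4:**
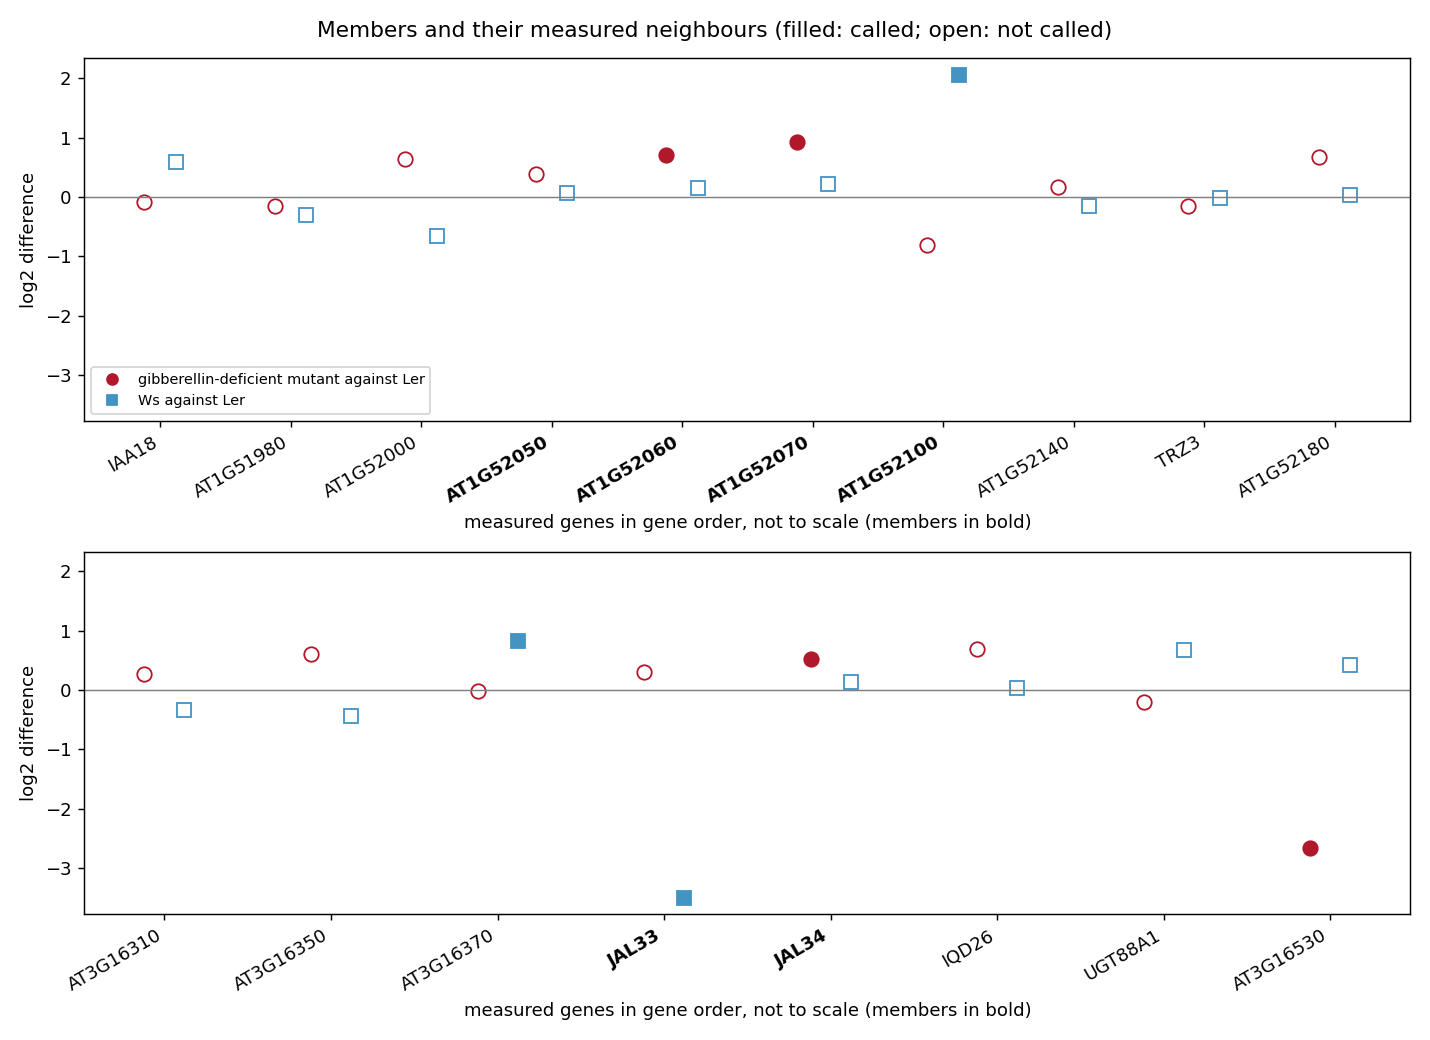
Log2 difference in the gibberellin-deficient mutant against Ler (circles) and in Ws against Ler (squares) for the lectins (bold) and their 3 nearest measured genes on each side, in gene order and not to scale, filled where called. In the lower panel JAL33 stands at -3.49 in Ws against Ler beside JAL34 at 0.14, and in the upper panel AT1G52100 stands at 2.05 beside AT1G52070 at 0.22.

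Of 39 further genes with a jacalin domain, 13 had a probe set of their own and 4 passed the filter. At least 2 more probe sets name several genes, with genes of this list among them. None of the 4 was called in Ws against Ler (1 at an unadjusted p below 0.05), in the de-etiolated mutant against Ws (1) or against Ler (2), by limma. Over all probe sets 18.1%, 16.9% and 29.9% had such a p in these comparisons. AT2G25980 was called in the gibberellin-deficient mutant against Ler, higher by 0.91 (SE 0.25, adjusted p = 0.039 by limma). Its signal was 189 and 149 in the gibberellin-deficient mutant, 39.5 and 65.5 in de-etiolated mutant seedlings, 59.2 and 60.2 in Ws, and 70.8 and 108.5 in Ler. The mutant stood above all other arrays, but the call was lost without Ler replicate 1 (0.62, adjusted p = 0.27), without replicate 1 of the mutant (0.75, adjusted p = 0.24) or its replicate 2 (1.08, adjusted p = 0.090). It was also lost without the filter (adjusted p = 0.087) and without the trend (adjusted p = 0.069). In the de-etiolated mutant against Ler, AT2G25980 passed without replicate 2 of the mutant (-1.10, adjusted p = 0.024) or Ler replicate 1 (-1.05, adjusted p = 0.037). JAL22, a lectin of PYK10 complexes, had a difference of -0.46 (SE 0.25, adjusted p = 0.28) in the gibberellin-deficient mutant against Ler, with 257 and 480 in that mutant and 386 and 605 in Ler. The arrays of the 2 groups overlapped. AT1G19715 gave 20.2 and 36.2 in the gibberellin-deficient mutant, 27.4 and 34.3 in de-etiolated mutant seedlings, 29.6 and 29.5 in Ws, and 53.0 and 44.4 in Ler. Both Ler arrays were above the 6 others, and its difference of -0.77 (SE 0.27) in the gibberellin-deficient mutant was not called (adjusted p = 0.097 by limma). The median of the 4 was 0.086 in the gibberellin-deficient mutant against Ler, against 0.0086 over all probe sets tested.

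AT1G52000, which lies 3 genes before AT1G52050, gave 56.3 and 42.0 in the gibberellin-deficient mutant, 51.3 and 51.7 in de-etiolated mutant seedlings, 29.2 and 10.8 in Ws, and 29.5 and 31.3 in Ler. Both mutants were above both wild types. Its difference of 1.37 (SE 0.34) in the de-etiolated mutant against Ws missed the threshold (adjusted p = 0.056 by limma). It passed without Ws replicate 1 (1.98, adjusted p = 0.0076) and not without Ws replicate 2 (0.76), so its size rested on the dim second Ws array. It passed also with the larger pseudocount (0.98, adjusted p = 0.0495). In Ws against Ler AT1G52000 passed without Ws replicate 1 (-1.28, adjusted p = 0.041) and differed by -0.054 without Ws replicate 2.

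The genes of the ER body, where PYK10 is stored, could be set beside the lectins for 4 of 13 listed genes, of which 3 were tested. In the gibberellin-deficient mutant against Ler none of the 3 was called by limma, nor had any an unadjusted p below 0.05. In the de-etiolated mutant against Ler all 3 had such a p, NAI2 and NAI1 (-0.52, SE 0.22) lower and PYK10 (0.33, SE 0.15) higher. Of these, NAI1 and PYK10 were not called. PYK10 had such a p in Ws against Ler, and NAI2 in the de-etiolated mutant against Ws. Over all probe sets the shares in these comparisons were 25.8%, 29.9%, 18.1% and 16.9%. PYK10 gave 1602 and 1619 in the gibberellin-deficient mutant, 1786 and 2463 in de-etiolated mutant seedlings, 2094 and 2147 in Ws, and 1821 and 1531 in Ler. Its difference from Ler was -0.05 (SE 0.15) in the gibberellin-deficient mutant and 0.34 (SE 0.15) in Ws, neither of them called. NAI1, the transcription factor needed for ER bodies and for PYK10 expression, had a difference of 0.43 (SE 0.22, adjusted p = 0.24) in the gibberellin-deficient mutant against Ler and of -0.14 (SE 0.22, adjusted p = 0.79) in Ws against Ler. NAI2, a protein needed to form ER bodies, fell by 1.05 (SE 0.19, adjusted p = 0.0029 by limma) in the de-etiolated mutant against Ler. It was called under every alternative that keeps all arrays, and over all 15 alternatives its difference was -1.28 to -0.81. Its signal there was 186 and 166, against 311 and 430 in Ler, 304 and 387 in the gibberellin-deficient mutant and 272 and 335 in Ws. Both de-etiolated arrays were below all 6 others. Against Ws the difference of NAI2 was -0.77 (adjusted p = 0.054), which passed without either Ler array (adjusted p of 0.036 and 0.037).

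**Figure D5:**
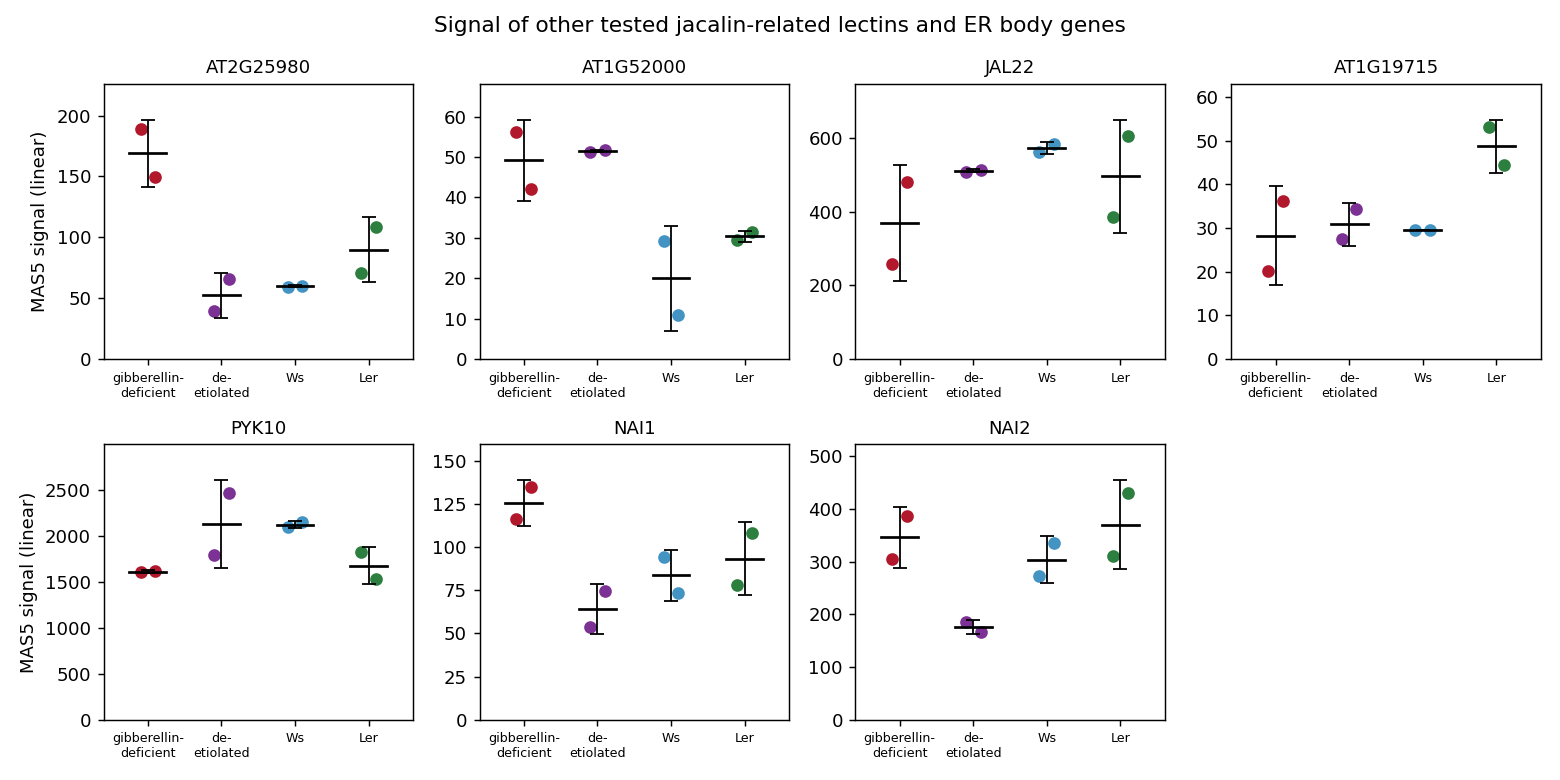
Signal (linear MAS5 scale, each panel from 0) of the 4 other tested jacalin-related lectins and of PYK10, NAI1 and NAI2 in the 4 groups; points are single arrays and bars the mean ± SD of 2. AT2G25980 averages 169 in the gibberellin-deficient mutant and 89.6 in Ler, and NAI2 averages 176 in the de-etiolated mutant, against 370 in Ler.

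None of the 6 listed myrosinase and glucosinolate breakdown genes, 12 jasmonate genes, 15 shoot markers and 10 seed markers was named alone by a probe set. Of 15 root markers 3 were, EXPA7, HRGP1 and AT1G14960, and none was called in the 4 comparisons, nor had any an unadjusted p below 0.05. Their summed signal was 2118 to 2377 in the gibberellin-deficient mutant, 1838 to 2046 in de-etiolated mutant seedlings, 2007 to 2231 in Ws, and 1702 to 2015 in Ler. Most of this sum was HRGP1, with 1553 and 1884 in the gibberellin-deficient mutant and 1244 and 1588 in Ler, which overlapped. AT1G14960 had a difference of 0.35 (SE 0.19) and EXPA7 of -0.21 (SE 0.23) in that comparison, neither of them called. The part of these markers in the rises of the lectins was not tested. Of 9 nuclear photosynthesis genes, listed after the annotation and values were seen, all gave signals far above the filter level in every array. Their summed signal in gibberellin-deficient seedlings was 12300 to 12720, that in de-etiolated mutant seedlings 11880 to 14480 and that in Ws 12080 to 12850, against 10510 to 11260 in Ler. The sum in Ler was thus below that in every other group, but not every gene followed it. PSBW, LHCB4.3 and PSAN had differences of -0.052, -0.053 and -0.017 in the gibberellin-deficient mutant against Ler. RCA and PSAE-1 had differences of -0.40 and -0.096 in the de-etiolated mutant against Ler. None of these differences was called. Against Ler, 1 of the 9 was called higher in the gibberellin-deficient mutant (PSB27, 0.43), 3 in the de-etiolated mutant (LHCB4.2, 0.76, PSB27, 0.71, and PSAN, 0.42) and none in Ws by limma, where 2 had an unadjusted p below 0.05.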

How the data were processed

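The authors deposited 1 signal intensity per probe set and array. Per the submitters' processing notes these are MAS5 values, and further settings are not given in the sources used here. Columns were matched to samples by identifier and groups came from the labels. Of 22810 probe sets 64 are controls, 13513 name 1 gene, 503 several and 8730 none. Genes were matched through the array annotation to the gene table of assembly TAIR10.1.

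Signals were used as log2(signal + 2.96), where 2.96 is 10% of the median over probe sets that name genes (29.6), and the lowest 40% of probe sets by mean were left out. All 8 arrays entered 1 limma fit (eBayes with trend, 4 residual and about 8.00 prior degrees of freedom), with two-sided tests and Benjamini-Hochberg adjustment over 13648 probe sets at 0.05. The sources do not state separate cultures for the 2 arrays of a group, so the spread behind each p-value may be technical, and the number of arrays limits the precision. The lectins and lists were chosen with earlier results of these data known.

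The genes named were all 8 lectins, each called or tested gene of the jacalin and ER body lists, the likest genes by Pearson r and the 3 nearest measured genes on each side. The alternatives were a larger pseudocount, no filter, quantile normalization, no trend, only the groups compared, a replicate block, no cross-hybridising probe sets and leaving out each array. They were applied to the 7 tested genes of the other lists after the data were seen. The steps were tested on simulated data. The software was limma 3.58.1 in R 4.3.3, and pandas 2.3.3, numpy 2.4.6 and matplotlib 3.10.9 in Python 3.11.15.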

Additional observations from a re-analysis of the deposited data

How the results depend on the processing

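In the gibberellin-deficient mutant against Ler 5 lectins were called, 3 without the variance trend, and 1 to 5 on leaving out single arrays. In Ws against Ler 4 were called, 2 without the filter, and 2 to 4 on leaving out arrays, and in the de-etiolated mutant against Ler 4, and 2 to 4. In the de-etiolated mutant against Ws the count was 0 throughout. The counts of all probe sets called in the de-etiolated mutant against Ws were 306 in the reported fit, 135 without the filter, 115 without the trend, 162 with only the groups compared, 430 with the replicate block and 77 to 367 on leaving out arrays. On leaving out arrays, the counts were 440 to 1606 in the gibberellin-deficient mutant against Ler (1464 in the reported fit), 937 to 2057 in the de-etiolated mutant against Ler (2164) and 340 to 843 in Ws against Ler (794). The totals that follow include differences not called in the reported fit, which had no call to lose. Of 224 values of single lectins under the settings that keep all arrays, 9 lost a call. The other 215 stayed called or not called as in the reported fit. With 1 array left out, 22 of 256 lost a call and 1 gained one, and no called difference changed sign. Leaving out an array of a group not compared cannot move a difference, and every call lost in this way came from an array of the groups compared. Same-lettered arrays had correlations of -0.033 to 0.14 in their deviations from the group means. The replicate block gave more probe sets called than the reported fit in all 4 comparisons. Its counts were 1579 in the gibberellin-deficient mutant against Ler and 430 in the de-etiolated mutant against Ws. They were 2310 in the de-etiolated mutant against Ler and 882 in Ws against Ler. Whether the replicate letters of the titles pair the arrays is not settled by these values. With replicate as a block, 5, 0, 4 and 4 lectins were called in the gibberellin-deficient mutant against Ler, the de-etiolated mutant against Ws and against Ler, and Ws against Ler. Under the block NAI2 (adjusted p = 0.026) and AT1G52000 (adjusted p = 0.034) passed in the de-etiolated mutant against Ws. PYK10 passed in the de-etiolated mutant against Ler without replicate 1 of the mutant (0.56, adjusted p = 0.024). AT1G52100 in the Ler background and AT5G35940 in Ws and the de-etiolated mutant lay below the filter level, which limits the precision of their differences. The causes of these changes were not tested.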
